A study of Eutrema salsugineum with 41 samples.

Results

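The long H3K9me2 domains of wild-type Eutrema salsugineum were examined, the stretches of 5 kb or more over which every 1 kb window was enriched for dimethylation of histone H3 at lysine 9. Reads were placed by their midpoint in windows of 1000 bp on the 24 scaffolds that reach 1 Mb or more. A window counted as enriched with at least 10 wild-type H3K9me2 reads and at least 4-fold more H3K9me2 than input reads after both were divided by library size. Touching enriched windows were merged. Of 11195 merged regions, 742 were 5 kb or longer and form the set described here. These domains were chosen by the reads of the wild-type H3K9me2 and input libraries, so their high wild-type level and their low input level are given as a description and support nothing by themselves. The 4 libraries of AtCMT3 plants took no part in the choice.

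H3K9me2 is a mark of silenced heterochromatin in plants, where it lies mainly over transposons and other repeats. In Arabidopsis thaliana it is placed by histone methyltransferases that bind methylated DNA, and it is itself bound by the CHROMOMETHYLASE enzymes CMT2 and CMT3, which methylate cytosines outside the CG context. Each mark thereby helps to keep the other in place. E. salsugineum, a relative in the Brassicaceae, has lost CMT3. A long domain holds the mark that CMT3 binds over many adjacent nucleosomes.

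The study introduced the genomic sequence of A. thaliana CMT3 (AtCMT3), with the promoter of the gene itself, into plants of the Shandong ecotype. The H3K9me2 libraries used here come from leaves of AtCMT3-L1T3, AtCMT3-L2T3, AtCMT3-L1T5 and AtCMT3-L2T5, which are transgenic plants of lineages 1 and 2 in generations T3 and T5, and from a wild-type plant without the transgene. A wild-type input library served as the background of all plants, and no input of a transgenic plant was used here. With 1 H3K9me2 library per plant, differences between plants could be set against counting error but not against the spread between replicates of a plant. All 4 ratios to wild type share the 1 wild-type library, which also chose the domains. In RNA-seq libraries of the same names the transgene stood at 77.2 TPM in AtCMT3-L1T3, 159 TPM in AtCMT3-L2T3, 97.8 TPM in AtCMT3-L1T5 and 62.7 TPM in AtCMT3-L2T5, against 0.225 TPM in wild type.

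Depth ran from 7755217 reads in AtCMT3-L2T3 to 18722786 reads in AtCMT3-L2T5, against 4494275 reads in wild type and 10880290 reads in input. Levels are reads per kb, scaled to a library of 1000000 reads. Intervals are 95% intervals that cover counting error only. Read names show that AtCMT3-L1T5, AtCMT3-L2T5 and input were sequenced in 1 run, AtCMT3-L2T3 in a run of its own, and wild type in a run that also gave 48.5% of the reads of AtCMT3-L1T3. The T5 plants shared no run with the T3 plant of their lineage, so run and generation cannot be told apart in either lineage. AtCMT3-L2T3 also had fewer reads of the full length, 74.0% against 81.5% to 87.8% in the other libraries. The sequences of the domains and the genes in them were not analysed here.

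The domains covered 5.02 Mb, which is 2.12% of the windows on these scaffolds and 24.3% of the enriched windows. Their median length was 6 kb and their mean length 6.76 kb. The number of regions fell with length, from 7045 regions of 1 kb to 31 regions of 9 kb, and was higher again at 10 kb with 37 regions and at 11 kb with 33. The 92 domains of 10 to 12 kb thus form a shoulder in the distribution of lengths. Only 19 domains were longer, 18 of them between 13 and 17 kb. A single domain reached 30 kb. Domains of 10 kb or more made up 15.0% of the domains and held 25.4% of their total length.

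**Figure D1:**
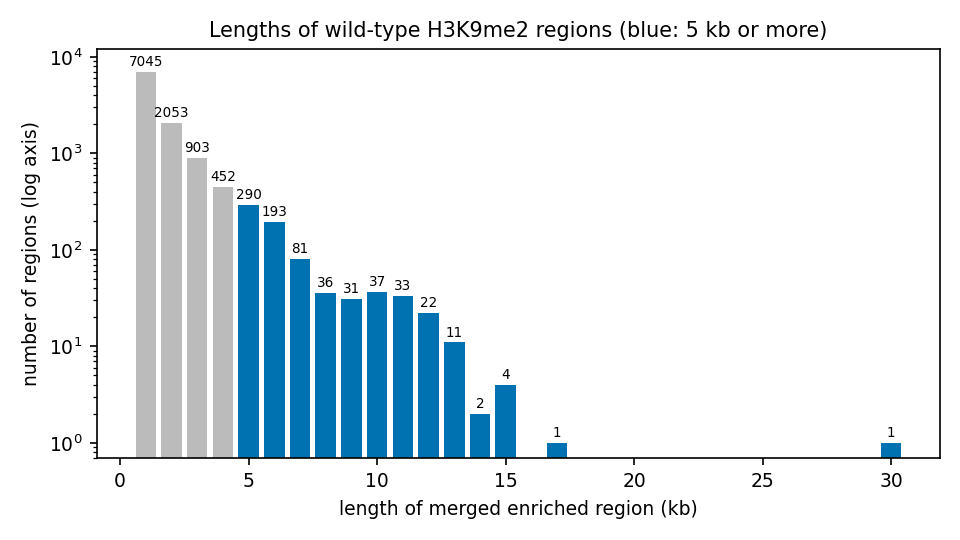
Number of merged enriched regions (vertical, log axis) by length in kb (horizontal) in wild type, with regions under 5 kb in grey and the 742 domains of 5 kb or more in blue. Numbers above the bars are counts, which fall to 31 at 9 kb and stand at 37 and 33 at 10 and 11 kb.

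The limit of 5 kb cuts a continuous distribution. The 290 domains of 5 kb, just inside it, had a median wild-type level of 7.59-fold over input, and the 452 regions of 4 kb, just outside it, one of 6.79-fold. At the domain ends the last window inside had a median of 6.95-fold over input and the next window outside 2.16-fold. The inner windows had a median of 9.50-fold. These values were used to draw the domains and describe where the limits fell.

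Domains were spread over 23 of the 24 scaffolds. Scaffold 3 held 67 domains, scaffold 4 held 65, scaffold 8 held 63 and scaffold 1 held 61. Scaffold 22, which reaches 1.87 Mb, held none, and only 0.534% of its windows were enriched. Relative to scaffold length, scaffold 17 was densest with 36.8 kb of domains per Mb, followed by scaffold 15 with 33.5 kb and scaffold 8 with 33.0 kb per Mb. Scaffold 13 was sparse among the long scaffolds, with 6 domains and 4.24 kb per Mb over 9.44 Mb. The density of domains and the share of enriched windows did not always go together. Scaffold 21 had the highest share of enriched windows at 17.5%, yet it held 5 domains and 14.5 kb of domains per Mb.

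**Figure D2:**
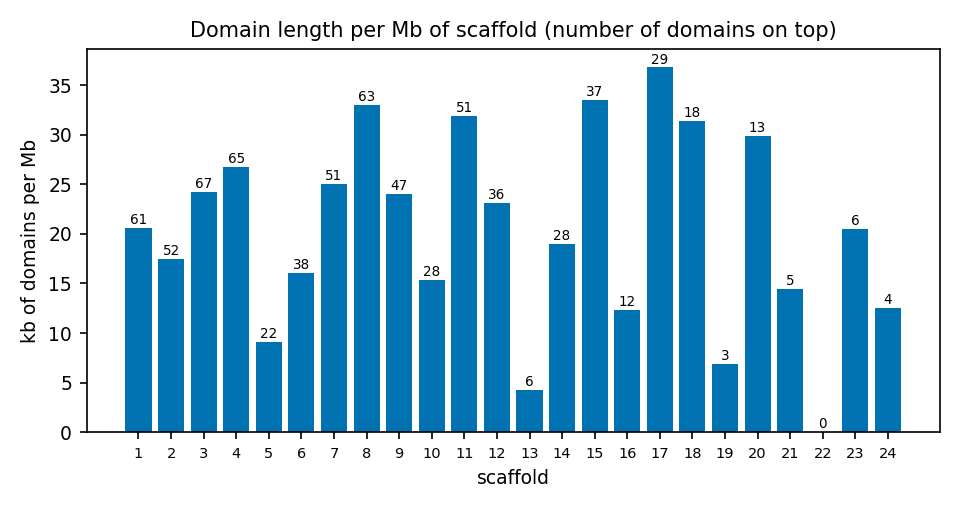
Length of domains in kb per Mb of scaffold (vertical) for the 24 scaffolds of 1 Mb or more (horizontal), with the number of domains above each bar. Scaffold 17 is highest at 36.8 kb per Mb and scaffold 22 has no domain.

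Along a scaffold the domains were uneven. Of 221 whole blocks of 1 Mb, 41 held no domain and the fullest held 11. The 49 fullest blocks, 22.2% of all, held 50.6% of the 690 domains in such blocks. The median gap between neighbouring domains was 153 kb, but 14.4% of the domains lay within 10 kb of another and 38.3% within 50 kb. In 23 of 719 gaps a single window that missed the limits separated 2 domains. In the 20 kb on each side of a domain 11.3% of the windows outside domains were enriched, against 6.20% of the windows farther away. The outermost 10% of scaffold length at both ends held 20.2% of the domains, and the middle 20% of each scaffold held 19.9%. Both stretches make up 20% of the length. Summed over both ends and all scaffolds, domains were thus crowded neither at scaffold ends nor in scaffold middles. Placement on single scaffolds was not summarised, and these pooled shares do not show it. As an example of placement toward one end, all 22 domains of scaffold 5, which reaches 15.7 Mb, ended by position 8096000.

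Reads that align to several places were removed by the authors, so repeats with near-identical copies are seen only in part. In the domains 9.35% of the bases were covered by no read of any of the 6 libraries. The share was 17.2% in shorter enriched regions and 10.4% in windows that were not enriched. Domains of 10 to 12 kb had 6.42% such bases. The long domains were thus better covered by unique reads than the short regions that the same limits found. The wild-type reads in this measure also drew the regions, so the contrast describes the choice in part.

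Each transgenic plant retained H3K9me2 over the domains, in H3K9me2 libraries that the rule did not use. Input was used by the rule, and it stood at 2.08 in the domains and at 4.26 in windows that were not enriched. Folds over input in the plants are therefore set in part by the choice of the domains. The level over all domains was 12.4 in AtCMT3-L1T3 (12.39 to 12.44), 18.7 in AtCMT3-L2T3 (18.63 to 18.71), 12.6 in AtCMT3-L1T5 (12.56 to 12.62) and 11.8 in AtCMT3-L2T5 (11.73 to 11.77), against 19.3 in wild type (19.26 to 19.38) and 2.08 in input (2.07 to 2.09). Every domain was above input in each of the 4 plants. The low input level in the domains favoured this count in advance, and the count was not taken over all merged regions. In median the domains lay 6.01-fold over input in AtCMT3-L1T3, 8.35-fold in AtCMT3-L2T3, 5.94-fold in AtCMT3-L1T5 and 5.66-fold in AtCMT3-L2T5, where wild type had 8.88-fold. Between 726 and 741 of the 742 domains stayed at 4-fold or more over input as a whole, a count that was not taken over all merged regions. Domains took up 6.23% of the reads in AtCMT3-L1T3, 9.37% in AtCMT3-L2T3, 6.32% in AtCMT3-L1T5 and 5.90% in AtCMT3-L2T5, against 9.69% in wild type and 1.04% in input.

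AtCMT3-L2T3 was close to wild type, with a ratio of 0.966 (0.963 to 0.970). The other plants were lower, at 0.608 (0.606 to 0.610) in AtCMT3-L2T5, 0.643 (0.641 to 0.645) in AtCMT3-L1T3 and 0.652 (0.649 to 0.654) in AtCMT3-L1T5. These intervals exclude 1, but with 1 library per plant they say nothing of the spread between plants. The level over all domains averaged 12.2 in the T5 plants and 15.5 in the T3 plants (n = 2 each, two-sided exact permutation test, p = 0.667). It averaged 15.2 in lineage 2 and 12.5 in lineage 1 (n = 2 each, two-sided exact permutation test, p = 1). With 2 plants against 2 this exact test cannot go below p = 0.333.

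**Figure D3:**
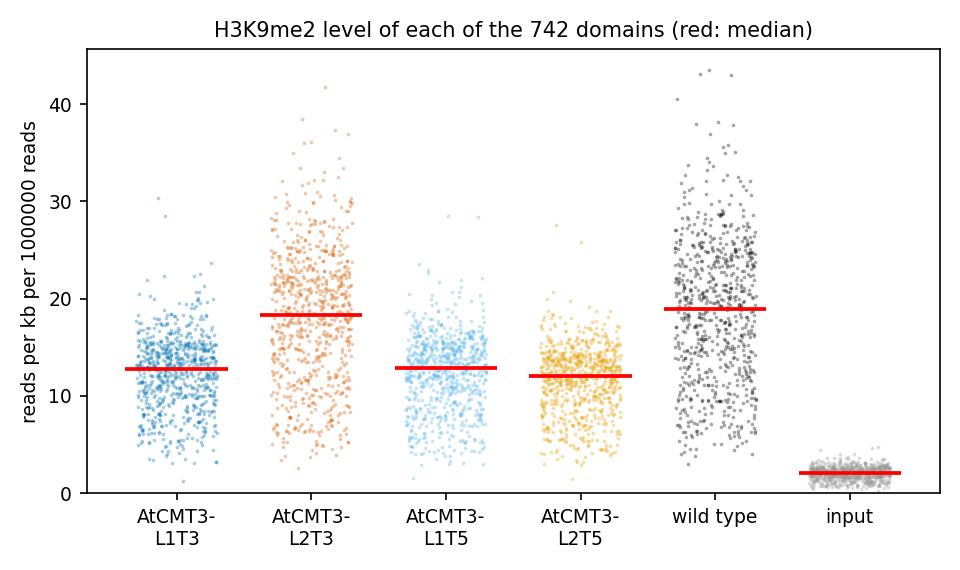
Level of each of the 742 domains in reads per kb per 1000000 reads (vertical) in the 4 AtCMT3 plants, wild type and input (horizontal), with 1 point per domain and the median as a red line. Medians are 12.8, 18.4, 12.9 and 12.05 in AtCMT3-L1T3, AtCMT3-L2T3, AtCMT3-L1T5 and AtCMT3-L2T5, 18.9 in wild type and 2.11 in input, and the points of AtCMT3-L2T3 and wild type spread over a wider range than those of the other 3 plants.

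Single domains spread around these ratios. From the lower to the upper quartile the domains lay between 0.567 and 0.855 of wild type in AtCMT3-L1T3, between 0.882 and 1.05 in AtCMT3-L2T3, between 0.600 and 0.783 in AtCMT3-L1T5 and between 0.550 and 0.772 in AtCMT3-L2T5. The level was below wild type in 670 domains in AtCMT3-L1T3, 473 in AtCMT3-L2T3, 727 in AtCMT3-L1T5 and 716 in AtCMT3-L2T5. These are 90.3%, 63.7%, 98.0% and 96.5% of the domains, against 68.1%, 52.2%, 85.4% and 80.2% of all 11195 merged regions in the same plants. In 458 domains, or 61.7%, all 4 plants were below wild type, against 42.1% of all merged regions. In 10 domains, or 1.35%, all 4 were above it, against 7.83% of all merged regions. These counts are no independent agreement of 4 plants, since the same wild-type library stands under each ratio. AtCMT3-L2T3 had the highest level of the 4 plants in 665 domains, or 89.6%. The same share was not taken over all merged regions, so it is not read as a trait of long domains.

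Changes of 1.5-fold or more were counted next. All merged regions serve as background there, although most are short and hold fewer reads than a domain, whose median was 501.5 wild-type reads, so that their ratios vary more by counting. At this limit 374 domains were lower than wild type in AtCMT3-L1T3, or 50.4%, where 18.7% of all merged regions were. In AtCMT3-L1T5 they were 329 or 44.3%, against a background of 22.8%. In AtCMT3-L2T5 they were 419 or 56.5%, against 20.6%. AtCMT3-L2T3 had 1 such domain, or 0.135%, against 5.33% of all regions. In 290 domains, or 39.1%, AtCMT3-L1T3, AtCMT3-L1T5 and AtCMT3-L2T5 all passed the limit, against 10.1% of all merged regions, with the same wild-type library under the 3 ratios. No domain was 1.5-fold higher than wild type in AtCMT3-L1T3, AtCMT3-L1T5 or AtCMT3-L2T5, where the backgrounds were 1.55%, 0.581% and 0.518%. In AtCMT3-L2T3 there were 6, or 0.809%, against 3.8% of all regions, and they held between 310 and 439 wild-type reads each.

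Within lineages the 2 generations stood differently. AtCMT3-L1T5 had 1.01 times the level of AtCMT3-L1T3 over the domains (1.011 to 1.017), and 355 domains, or 47.8%, were lower in T5 than in T3, against 66.5% of all merged regions. AtCMT3-L2T5 had 0.629 times the level of AtCMT3-L2T3 (0.628 to 0.631), and 731 domains, or 98.5%, were lower, against 82% of all merged regions. At 1.5-fold 382 domains were lower in AtCMT3-L2T5 than in AtCMT3-L2T3, or 51.5%, against 16.6% of all regions. In AtCMT3-L1T5 over AtCMT3-L1T3 only 1 domain was 1.5-fold lower and 5 were higher, against 6.9% and 2.14% of all regions. Between lineages in generation T3, AtCMT3-L2T3 was 1.503 times AtCMT3-L1T3 (1.499 to 1.508). These 2 plants shared no run, so run and lineage cannot be told apart in T3. In generation T5, where both plants were sequenced in 1 run, AtCMT3-L2T5 was 0.933 times AtCMT3-L1T5 (0.930 to 0.936).

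The level relative to wild type was lower over domains of 10 kb or more than over the shorter domains. Over domains of 5 to 9 kb the level was 12.2 in AtCMT3-L1T3, 17.5 in AtCMT3-L2T3, 12.2 in AtCMT3-L1T5 and 11.5 in AtCMT3-L2T5, against 17.9 in wild type and 2.07 in input. Over those of 10 to 12 kb it was 13.3, 22.6, 14.0 and 12.7 in the same plants, against 24.1 in wild type and 2.12 in input. The wild-type level thus differed more between the length classes than the level of AtCMT3-L1T3, AtCMT3-L1T5 or AtCMT3-L2T5 did. The ratios over the 5 to 9 kb class were 0.684, 0.978, 0.683 and 0.645 in the 4 plants. Over the 10 to 12 kb class they were 0.550 (0.546 to 0.555) in AtCMT3-L1T3, 0.938 (0.931 to 0.945) in AtCMT3-L2T3, 0.581 (0.576 to 0.586) in AtCMT3-L1T5 and 0.526 (0.522 to 0.530) in AtCMT3-L2T5. The 19 domains of 13 kb or more had ratios of 0.551, 0.952, 0.587 and 0.528, no lower than those of the 10 to 12 kb class.

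Shorter regions were closer to wild type than the domains. Over the 7045 regions of 1 kb the ratios were 0.893 in AtCMT3-L1T3, 1.01 in AtCMT3-L2T3, 0.802 in AtCMT3-L1T5 and 0.838 in AtCMT3-L2T5. The ratio over the domains was 0.762 times that over all regions of 1 to 4 kb in AtCMT3-L1T3 (0.759 to 0.766), 0.971 times in AtCMT3-L2T3 (0.966 to 0.975), 0.840 times in AtCMT3-L1T5 (0.837 to 0.844) and 0.772 times in AtCMT3-L2T5 (0.768 to 0.775). Selection on the wild-type reads weighs more where a region holds few of them. With regions called in wild-type reads drawn at random and wild type measured in the remaining reads, these values were 0.730, 0.938, 0.810 and 0.740. The domains thus lay farther below wild type than the short regions in each plant, also where the wild-type level came from reads that did not choose them. Both parts come from the 1 wild-type library, so the split removes shared counting error only. Selection on other traits of that library remains, and this comparison was not made with regions called in another library.

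Domains with more H3K9me2 in wild type were lower relative to it. The domains were ordered by their level in wild-type reads drawn at random and cut into 4 classes of 185 or 186 domains. Wild type was measured in the remaining reads of the same library, which removes shared counting error only. In the class with the lowest level the plants had 8.14 in AtCMT3-L1T3, 9.21 in AtCMT3-L2T3, 7.32 in AtCMT3-L1T5 and 7.37 in AtCMT3-L2T5, against 9.29 in wild type and 1.35 in input. In the class with the highest level they had 15.4, 25.6, 16.1 and 14.6, against 27.5 in wild type and 2.42 in input. The ratio to wild type was 0.876, 0.992, 0.788 and 0.793 in the lowest class and 0.558, 0.930, 0.585 and 0.529 in the highest. Over input, the lowest class was at 6.04-fold, 6.83-fold, 5.43-fold and 5.46-fold in the plants, against 6.89-fold in wild type, and the highest class at 6.35-fold, 10.6-fold, 6.65-fold and 6.01-fold, against 11.4-fold in wild type. The lowest and the highest class thus differed less in their enrichment over input in AtCMT3-L1T3, AtCMT3-L1T5 and AtCMT3-L2T5 than in AtCMT3-L2T3 and wild type. The lowest class had 27.6% of its bases without any read and the highest 2.62%, and levels were not corrected for such bases.

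**Figure D4:**
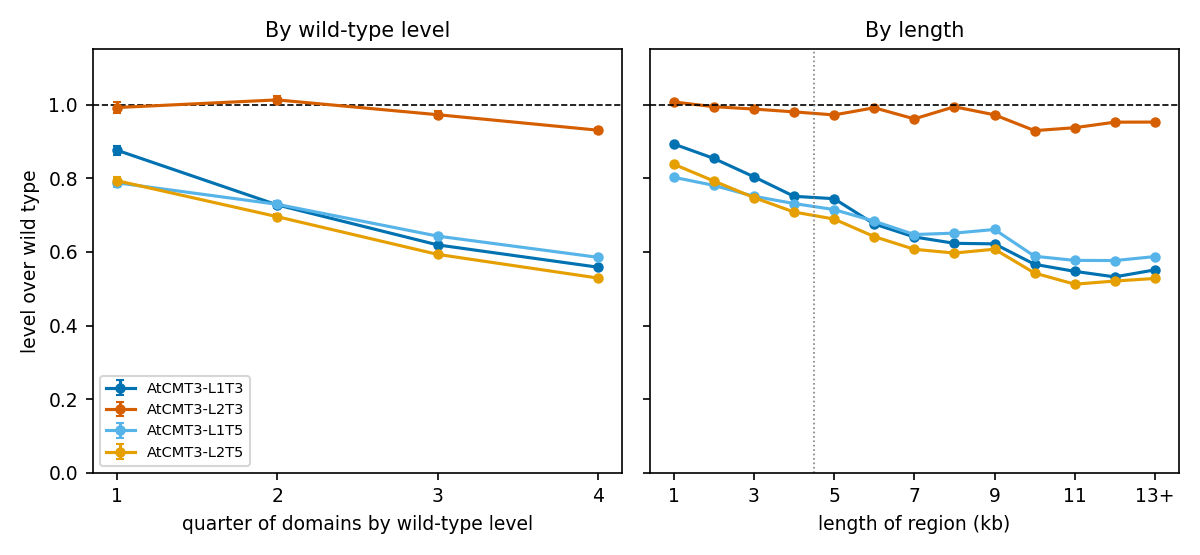
Level over wild type (vertical) in each AtCMT3 plant by class of wild-type level, lowest to highest (left, bars are 95% counting intervals), and by length of the region in kb (right, domains right of the dotted line, 13+ for 13 kb or more). AtCMT3-L1T3, AtCMT3-L1T5 and AtCMT3-L2T5 lie between 0.788 and 0.876 in the lowest class and between 0.529 and 0.585 in the highest, while AtCMT3-L2T3 stays between 0.930 and 1.01.

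Several values of the libraries moved with these ratios. Windows that were not enriched stood at 3.42 in AtCMT3-L1T3, 3.13 in AtCMT3-L2T3, 3.45 in AtCMT3-L1T5 and 3.50 in AtCMT3-L2T5, against 3.08 in wild type and 4.26 in input. The domains stood 3.63-fold, 5.96-fold, 3.65-fold and 3.36-fold over these windows in the 4 plants and 6.28-fold in wild type. Across the 742 domains the level in a library was related to that of input with a Spearman coefficient of 0.816 in AtCMT3-L1T3, 0.564 in AtCMT3-L2T3, 0.727 in AtCMT3-L1T5 and 0.804 in AtCMT3-L2T5, against 0.592 in wild type. These coefficients describe points that share their sequence and its mappability. AtCMT3-L1T3, AtCMT3-L1T5 and AtCMT3-L2T5 thus had lower domain levels than AtCMT3-L2T3 and wild type. They also had more reads between enriched windows and domains ordered more like input. Within each of these groups the values did not always keep this order. The level over all windows lay between 3.99 and 4.06 in every library. Fewer reads in enriched windows therefore go with more between them by arithmetic, and the latter is no separate property. The part of background in the ratios was not tested.

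Sequencing run could be compared within AtCMT3-L1T3 only. Its reads that came from the wild-type run gave a ratio of 0.640 (0.638 to 0.643), and those of its other run 0.645 (0.643 to 0.648). The 2 runs of this library differed by 1.5-fold in 0 domains, and 82.7% of the domains agreed within 10%. The other 3 plants were sequenced in runs that hold no second library of the same plant, so the part of run in their ratios was not tested. Removal of duplicates limits how many reads a position can hold. In the domains reads filled 10.5% of the usable positions and strands in AtCMT3-L1T3, 7.99% in AtCMT3-L2T3, 7.47% in AtCMT3-L1T5 and 12.1% in AtCMT3-L2T5, against 4.79% in wild type and 1.25% in input. With the reads before this removal estimated from the fill, the ratios were 0.647, 0.975, 0.654 and 0.616. The part of depth was not tested beyond this estimate.

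Inside the domains H3K9me2 was lower at the edges than in the centre. The edge was the first and the last window of a domain and the centre all windows between them. AtCMT3-L1T3 had 11.2 at the edge and 12.9 in the centre, AtCMT3-L2T3 16.0 and 19.8, AtCMT3-L1T5 11.5 and 13.05, and AtCMT3-L2T5 10.8 and 12.1. Wild type had 16.7 at the edge and 20.4 in the centre, and input 2.17 and 2.04. The H3K9me2 libraries thus had less signal at the edge, and input slightly more. The rule sets part of this in wild type and input, since each edge window lies beside a window that missed the limits. The edge was below the centre in 552 domains in AtCMT3-L1T3, 501 in AtCMT3-L2T3, 484 in AtCMT3-L1T5 and 513 in AtCMT3-L2T5, against 495 in wild type and 307 in input.

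Over all domains together the edge stood at 0.866 of the centre in AtCMT3-L1T3 (0.862 to 0.870), 0.808 in AtCMT3-L2T3 (0.804 to 0.812), 0.883 in AtCMT3-L1T5 (0.878 to 0.887) and 0.890 in AtCMT3-L2T5 (0.886 to 0.893), against 0.817 in wild type (0.811 to 0.822). Relative to wild type this is 1.06 (1.05 to 1.07), 0.989 (0.980 to 0.998), 1.08 (1.07 to 1.09) and 1.09 (1.081 to 1.098) in the 4 plants. Library size cancels in this measure, but the wild-type step that it is set against was drawn in part by the rule. Long domains also weigh more in the centre than at the edge, so the measure was taken within classes of length too.

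The step relative to wild type varied with the class of length. Over domains of 5 to 6 kb the edge relative to the centre was 0.985 of wild type in AtCMT3-L1T3 (0.974 to 0.995), 0.977 in AtCMT3-L2T3 (0.965 to 0.988), 1.02 in AtCMT3-L1T5 (1.01 to 1.03) and 1.01 in AtCMT3-L2T5 (1.00 to 1.02). Over the 148 domains of 7 to 9 kb it was 1.05, 0.997, 1.07 and 1.09 in the same plants, and over those of 10 to 12 kb 1.02 (1.00 to 1.04), 0.973 (0.953 to 0.993), 1.07 (1.05 to 1.09) and 1.07 (1.05 to 1.09). By summed reads the edge in AtCMT3-L1T5 and AtCMT3-L2T5 was thus nearer to the centre than in wild type in all 3 classes. AtCMT3-L1T3 lay on either side of wild type. Over single domains of 5 to 6 kb the median was 0.943 in AtCMT3-L1T5 and 0.928 in AtCMT3-L2T5, against 0.9375 in wild type. By this median AtCMT3-L2T5 was below wild type in that class, while both plants were above it in the longer classes. Over single domains of all lengths the median was 0.874 in AtCMT3-L1T3, 0.878 in AtCMT3-L2T3, 0.913 in AtCMT3-L1T5 and 0.911 in AtCMT3-L2T5, against 0.891 in wild type. With domains drawn at 6-fold over input the measure for AtCMT3-L1T3 was 1.00 (0.991 to 1.01). For AtCMT3-L2T3 the interval included 1 at 6-fold over input with 0.992 (0.981 to 1.003), with the outer 2 windows as edge at 0.998 (0.990 to 1.005), and with a random split of wild-type reads at 1.00 (0.989 to 1.01).

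**Figure D5:**
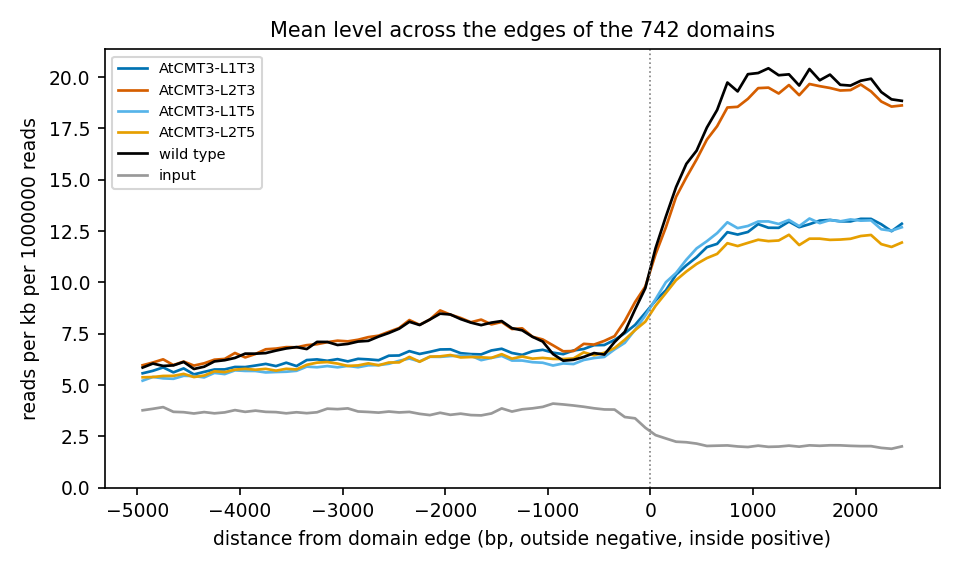
Mean level in bins of 100 bp (vertical, reads per kb per 1000000 reads) by distance from the domain edge in bp (horizontal, outside negative and inside positive), averaged over both edges of the 742 domains in the 4 AtCMT3 plants, wild type and input. Wild type and AtCMT3-L2T3 climb to about 20 reads per kb per 1000000 reads within the first 1000 bp, the other 3 plants to about 12, and input falls across the edge.

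The step at the edge was gradual at the scale of 100 bp. In the first 100 bp inside the edge the level was 9.12 in AtCMT3-L1T3, 11.4 in AtCMT3-L2T3, 9.19 in AtCMT3-L1T5 and 8.86 in AtCMT3-L2T5, against 11.7 in wild type and 2.57 in input. In the last 100 bp of the first window it was 12.5, 18.9, 12.8 and 11.9 in the plants, against 20.1 in wild type and 1.99 in input. Just outside, where the rule required that the window miss the limits in wild type, the first window had 7.16, 7.57, 6.68 and 6.83 in the plants, against 7.15 in wild type and 3.74 in input. The second window outside had 6.62, 7.91, 6.29 and 6.37 in the plants, against 7.87 in wild type and 3.71 in input. The first window outside was enriched by the same limits on at least 1 side of 109 domains in AtCMT3-L1T3, 144 in AtCMT3-L2T3, 50 in AtCMT3-L1T5 and 66 in AtCMT3-L2T5. These are 14.7%, 19.4%, 6.74% and 8.89% of the domains, and the share over all merged regions was not taken.

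The average level also had a dip in the middle of the domains, deeper in the longer ones. Each of the 92 domains of 10 to 12 kb was divided into 10 equal parts, and mirrored parts were averaged. The outermost part had 11.99 in AtCMT3-L1T3, 19.8 in AtCMT3-L2T3, 13.1 in AtCMT3-L1T5 and 11.8 in AtCMT3-L2T5, against 21.6 in wild type and 2.31 in input. The middle one of the 5 mirrored parts had 14.4, 26.2, 15.2 and 13.7, against 27.5 in wild type and 2.04 in input. The central part had 12.7, 19.6, 13.1 and 11.9, against 21.0 in wild type and 2.01 in input. In the average of each H3K9me2 library the level was thus highest between the edge and the middle. Domain by domain, the central 2 of the 10 parts were below the 3 inner parts on both sides in 49 of the 92 domains in AtCMT3-L1T3, 65 in AtCMT3-L2T3, 50 in AtCMT3-L1T5 and 52 in AtCMT3-L2T5, against 60 in wild type and 32 in input. The dip was therefore present in part of these domains. In the 483 domains of 5 to 6 kb the outermost part had 10.3, 13.6, 10.4 and 9.88 in the plants, against 14.0 in wild type. The middle one of the 5 parts had 12.4, 17.5, 12.2 and 11.6, against 17.9 in wild type, and the central part 12.4, 16.4, 11.8 and 11.4, against 16.5 in wild type. A shallow dip in the average was thus seen in AtCMT3-L2T3 and wild type in these domains too. It was slight in AtCMT3-L1T5 and AtCMT3-L2T5, and in AtCMT3-L1T3 the 2 values hardly differed. The central 2 parts were below both sides in 33.5% of these domains in AtCMT3-L1T3, 40.4% in AtCMT3-L2T3, 38.3% in AtCMT3-L1T5 and 36.0% in AtCMT3-L2T5, against 44.1% in wild type and 35.6% in input. In AtCMT3-L1T3 and AtCMT3-L2T5 the share was near that of input, so these counts show no dip there.

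Most windows of the domains passed the same limits in the AtCMT3 plants, with the input library that also drew the domains. Of 5017 domain windows 87.5% were enriched in AtCMT3-L1T3 (86.5% to 88.4%), 95.8% in AtCMT3-L2T3 (95.2% to 96.3%), 85.2% in AtCMT3-L1T5 (84.1% to 86.1%) and 85.0% in AtCMT3-L2T5 (84.0% to 86.0%). Of all 20685 enriched windows the shares were 81.3%, 89%, 72.3% and 76.8%. Edge windows passed less often than inner ones, with 78.3% of edge and 91.3% of inner windows in AtCMT3-L1T3, 91.9% and 97.4% in AtCMT3-L2T3, 77.6% and 88.3% in AtCMT3-L1T5, and 76.3% and 88.7% in AtCMT3-L2T5. Every window passed in 315 domains in AtCMT3-L1T3, 568 in AtCMT3-L2T3, 281 in AtCMT3-L1T5 and 283 in AtCMT3-L2T5. In none of the 4 plants did a domain lose all of its windows. Neither count was taken over all merged regions.

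When the same rule was applied to the libraries of the plants themselves, it found 879 long domains in AtCMT3-L1T3, 1053 in AtCMT3-L2T3, 598 in AtCMT3-L1T5 and 677 in AtCMT3-L2T5, against the 742 of wild type. The longest was 15 kb in AtCMT3-L1T3, 24 kb in AtCMT3-L2T3, 15 kb in AtCMT3-L1T5 and 12 kb in AtCMT3-L2T5. Of the wild-type domains 74.1%, 88.9%, 66.0% and 68.3% touched a long domain of these plants. A touch needs only 1 shared window, and the share over all merged regions was not taken. By length, 67.5%, 87.7%, 61.0% and 61.1% of the wild-type domains lay in long domains of the plants. Of the plants' own long domains 63.7%, 63.1%, 83.4% and 75.9% touched a wild-type one. In each plant at least 1 window of the 30 kb domain of wild type therefore missed the limits. These libraries are deeper than wild type, which makes the minimum of 10 reads easier to reach, and the number of domains is not a level of the mark.

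The 5 longest domains are given singly, in the E. salsugineum v1.0 coordinates of the deposited reads. The longest, of 30 kb, lay on scaffold_1:17254001-17284000, and its nearest neighbour was 16 kb away. Its level was 9.93 in AtCMT3-L1T3, 18.1 in AtCMT3-L2T3, 11.7 in AtCMT3-L1T5 and 10.6 in AtCMT3-L2T5, against 17.8 in wild type and 1.95 in input. AtCMT3-L2T3 was thus at 1.02 of wild type here (0.968 to 1.07), within counting error of 1. The other 3 plants were at 0.559 (0.532 to 0.588), 0.658 (0.625 to 0.692) and 0.599 (0.571 to 0.628). Its edges were lower than its centre in all of the H3K9me2 libraries, at 0.874 of it in AtCMT3-L1T3 and 0.616 in wild type.

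The domain of 17 kb on scaffold_4:10129001-10146000 had 12.4 in AtCMT3-L1T3, 19.4 in AtCMT3-L2T3, 12.6 in AtCMT3-L1T5 and 11.7 in AtCMT3-L2T5, against 21.2 in wild type and 2.18 in input. It stood 402 kb from the next domain. The domain of 15 kb on scaffold_7:5707001-5722000 had 14.3, 24.8, 14.2 and 12.6 in the same plants, against 26.7 in wild type and 2.43 in input. Its edges were far below its centre, at 0.652, 0.424, 0.580 and 0.596 of it in the plants and 0.338 in wild type.

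The domain of 15 kb on scaffold_4:11006001-11021000 was covered at every base by at least 1 read. It had 17.9 in AtCMT3-L1T3, 23.9 in AtCMT3-L2T3, 16.5 in AtCMT3-L1T5 and 14.6 in AtCMT3-L2T5, against 25.4 in wild type and 2.69 in input. The domain of 15 kb on scaffold_11:5641001-5656000 had 9.001, 15.6, 10.3 and 9.87 in the plants, against 14.8 in wild type and 1.64 in input. In the 5 longest domains AtCMT3-L2T3 was the plant nearest to wild type, and AtCMT3-L1T3, AtCMT3-L1T5 and AtCMT3-L2T5 were all below it.

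The extremes among the 737 domains with 100 or more wild-type reads were mostly short domains. They were picked for their ratio, so the intervals describe their counts and do not test the ratio against 1. The lowest ratio in AtCMT3-L1T3 belonged to a domain of 12 kb on scaffold_13:3774001-3786000. Its level there was 12.6 in AtCMT3-L1T3, 33.1 in AtCMT3-L2T3, 16.7 in AtCMT3-L1T5 and 13.8 in AtCMT3-L2T5, against 33.7 in wild type and 1.91 in input. AtCMT3-L1T3 thus stood at 0.374 of wild type (0.352 to 0.398), while AtCMT3-L2T3 stood at 0.982 (0.926 to 1.04). A domain of 5 kb on scaffold_3:7188001-7193000 was lowest in both AtCMT3-L1T5 and AtCMT3-L2T5. It had 11.9 in AtCMT3-L1T3, 21.9 in AtCMT3-L2T3, 11.01 in AtCMT3-L1T5 and 10.7 in AtCMT3-L2T5, against 27.5 in wild type and 2.00 in input, and its ratio was 0.400 in AtCMT3-L1T5 and 0.389 in AtCMT3-L2T5.

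The highest ratio of all belonged to AtCMT3-L2T3 on scaffold_1:18591001-18596000, a domain of 5 kb. The level there was 9.16 in AtCMT3-L1T3, 27.5 in AtCMT3-L2T3, 16.7 in AtCMT3-L1T5 and 11.1 in AtCMT3-L2T5, against 13.8 in wild type and 2.19 in input. AtCMT3-L2T3 was at 1.99 of wild type (1.75 to 2.27) and AtCMT3-L1T5 at 1.21 (1.06 to 1.38), with AtCMT3-L1T3 at 0.664 and AtCMT3-L2T5 at 0.803. In this domain the plants were thus on both sides of wild type. The lowest ratio of AtCMT3-L2T3 was 0.655 (0.554 to 0.775), on scaffold_15:1107001-1112000, with 6.25 in AtCMT3-L1T3, 7.84 in AtCMT3-L2T3, 7.03 in AtCMT3-L1T5 and 6.56 in AtCMT3-L2T5, against 11.97 in wild type and 1.45 in input.

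The highest ratios of the other plants lay in domains with little wild-type signal. AtCMT3-L1T3 reached 1.41 (1.21 to 1.66) on scaffold_18:525001-530000, where it had 11.998 and wild type 8.50. AtCMT3-L1T5 reached 1.21 (0.971 to 1.52) on scaffold_10:982001-987000, where it had 5.82 and wild type 4.81 from 108 reads, and 44.5% of the bases there had no read. AtCMT3-L2T5 reached 1.17 (0.994 to 1.39) on scaffold_9:11882001-11887000, where it had 9.07 and wild type 7.74.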

How the data were processed

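H3K9me2 ChIP-seq libraries of leaves from 5 plants and 1 wild-type input library were used. After trimming with Trimmomatic the authors mapped the reads with Bowtie to release v1.0 of the E. salsugineum genome. Reads with several alignments were dropped, SAMtools took out duplicates, and the files that the authors deposited give the position of each read left. No reads of a library shared their 5′ end and strand. Reads were counted by midpoint, scaffold ends were taken as the largest read end, and an input of 0 was set to 1 read. Levels were divided by library reads. Ratios have exact conditional binomial intervals, levels exact Poisson intervals and shares exact binomial (Clopper-Pearson) intervals, all at 95%. Intervals of ratios of ratios use a normal approximation on the log scale. Levels over all domains were compared between generations and between lineages with a two-sided exact permutation test over plants, added after seeing the data. No other test was run.

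RNA-seq values that the authors deposited as FPKM were used for AtCMT3 only. Of the columns the authors deposited under that name, 5 are in TPM, since each sums to 1000000, and all were scaled to that sum. Domains were named by rule: the 5 longest, ties ordered by wild-type reads, and in each plant the highest and the lowest ratio among domains with 100 or more wild-type reads. The members, the rule and the alternatives were chosen with earlier results of these data known. Alternatives were 6-fold over input, windows shifted by 500 bp or 500 bp wide, merging across 1 window, split wild-type reads, subtracted input, another scale and a wider edge. The single sequencing runs, classes of domain length for the edge, domains called in AtCMT3-L2T3, a random split, the fill of positions and scaled read minimums were added after seeing the data. Bisulfite and H3K9me1 libraries were not used here. Versions were matplotlib 3.10.9, scipy 1.17.1, pandas 2.3.3, numpy 2.4.6 and Python 3.11.15.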

Additional observations from a re-analysis of the deposited data

How the results depend on the processing

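With T3 and T5 paired by lineage there are 2 pairs, and the difference in domain level of T5 minus T3 was -3.37 (exact paired permutation test, two-sided, p = 1, where 2 pairs allow no p below 0.5). Each plant gave 1 library, so no replicate could be left out. Wherever 4 values follow each other, they belong to AtCMT3-L1T3, AtCMT3-L2T3, AtCMT3-L1T5 and AtCMT3-L2T5. The number of domains was 742 and became 366 at 6-fold over input, 369 in windows of 500 bp and 1400 when merged across 1 window, and it lay between 718 and 1053 under the other alternatives. Windows of 500 bp kept the minimum of 10 reads, so they required more reads per kb. Calls in split wild-type reads used a minimum of 5 reads. The level over wild type was 0.571, 0.954, 0.606 and 0.546 at 6-fold over input, 0.639, 0.967, 0.652 and 0.607 in shifted windows, 0.590, 0.956, 0.618 and 0.562 in windows of 500 bp, 0.723, 0.990, 0.702 and 0.679 with merging across 1 window. It was 0.600, 0.962, 0.610 and 0.561 with input subtracted and 0.579, 0.949, 0.581 and 0.535 on the scale of reads outside enriched windows. It was 0.647, 0.975, 0.654 and 0.616 with the fill of positions and 0.643, 0.972, 0.654 and 0.609 with a random split of wild-type reads. Over domains called in AtCMT3-L2T3 it was 0.710, 0.709 and 0.674 in the other 3 plants, and the single runs of AtCMT3-L1T3 gave 0.640 and 0.645. AtCMT3-L1T3, AtCMT3-L1T5 and AtCMT3-L2T5 were below wild type under each of these alternatives, and AtCMT3-L2T3 was too, where it was computed. The edge over the centre relative to wild type was 1.00, 0.992, 1.04 and 1.03 at 6-fold over input, 1.05, 0.979, 1.07 and 1.08 in shifted windows, and 1.01, 0.986, 1.05 and 1.05 in windows of 500 bp. It was 1.01, 0.969, 1.04 and 1.04 with merging across 1 window, 1.05, 0.998, 1.06 and 1.06 with the outer 2 windows as edge, and 1.05, 0.986, 1.08 and 1.08 with input subtracted. Within classes of length AtCMT3-L1T3 changed side, with 0.985, 0.977, 1.02 and 1.01 over domains of 5 to 6 kb, 1.05, 0.997, 1.07 and 1.09 over those of 7 to 9 kb, and 1.02, 0.973, 1.07 and 1.07 over those of 10 to 12 kb. With a random split AtCMT3-L2T3 changed side, at 1.00 (0.989 to 1.01) in place of 0.989, and the other plants were at 1.07, 1.08 and 1.09. The ratio of domains to short regions was 0.738, 0.967, 0.834 and 0.751 with input subtracted, 0.760, 0.976, 0.839 and 0.771 with the fill of positions and 0.730, 0.938, 0.810 and 0.740 with the random split. Why these values moved was not tested. The odd and even reads of the planned split are tied, because the files are sorted by position, and differed by at most 1 read in 99.5% of the domain windows, so their small changes show nothing. Depth limits single domains more than sums, since a domain held 67 wild-type reads at the least. The planned description of genes and sequences was not run.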

Other observations

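Domains that lay closest together were not chosen for any comparison. The fullest 1 Mb blocks held 11 domains each, on scaffolds 1, 9 and 15, and between 13.5% and 17.6% of their windows were enriched. Ratios to wild type differed between scaffolds. AtCMT3-L2T3 stood at 1.26 of wild type over the 18 domains of scaffold 18 and at 0.878 over the 22 domains of scaffold 5, whereas AtCMT3-L1T3 stood at 0.628 and 0.649 over the same domains. Neither difference has a replicate.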
